A study of Mus musculus with 12 samples.

Results

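Mouse embryonic stem (ES) cells expressed 7 genes whose signal lay well below the ES level in at least 1 of the induced pluripotent stem (iPS) groups of the study. The genes are Lrrc15, Slit2, Klk8, Grb7, Igfbp2, 4933402E13Rik and Pramel12, which is 7 of the 10997 genes that the arrays' annotation names. They were picked by these very differences between iPS and ES cells, with no numeric threshold, so the differences from ES are described below and not tested. The genes are read by 11 probes, matched by current gene symbol, and 9 of these passed the filter used for testing, a detection p-value below 0.01 on at least 3 of the 12 arrays. The other 2 are dim probes of Slit2. The second probe of 4933402E13Rik passed through its ES arrays alone.

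Total RNA was read on Illumina bead arrays in 4 groups of 3 samples. Mouse Nanog was used to make the first iPS group (mNanog iPS) and human NANOG to make the second (hNanog iPS). The others are ES cells and neural stem (NS) cells that carry no functional Nanog. Every sample has the strain label E14Tg2A (129), the name of a mouse ES line; iPS and ES cells were grown in N2B27 with LIF, 3 µM CHIR99021 (a GSK3 inhibitor) and 1 µM PD0325901, which inhibits MEK, while culture conditions for NS were not stated. Nothing in the labels says whether samples of a group are separate cultures or clones, so the p-values cover no more than the spread among these arrays, which may be technical, and the form of Nanog cannot be told apart from the iPS clone.

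Per array, 13654 to 16776 of the 45281 probes were detected (30.2% to 37%). Correlations between replicates, over the tested probes alone, were 0.988 to 0.996. Neither of the Nanog probes was detected on an NS array (mean log2 intensity 4.41 and 4.72, against 11.6 and 13.0 in ES); whether they lie in the deleted part of the gene is not analysed here.

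The genes have unlike roles. Slit2 is a secreted guidance ligand that signals through Robo receptors and repels migrating cells and axons. Igfbp2 is a secreted protein that binds insulin-like growth factors and sets how much of them reaches their receptors. Klk8 (neuropsin) is a secreted serine protease, Lrrc15 a membrane protein built of leucine-rich repeats, and Grb7 a cytoplasmic adaptor whose SH2 domain docks on activated receptor tyrosine kinases. Pramel12 belongs to the Prame-like family, a large rodent group of leucine-rich repeat proteins expressed mostly in germ cells and early embryos. No role is stated here for 4933402E13Rik, a gene on chromosome X.

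The start regions of the members that were dim or undetected in an iPS group are shown to set their CG content beside their expression. The RefSeq promoter table (build GRCm38.p6, from 250 bases before to 50 bases after each start) held 5 of the 7 members, with 7 promoters. CG pairs are in capitals, and each sequence runs 5′ to 3′ on the strand of its gene. Those of Lrrc15 (chr16:30283205-30283504, minus strand), Slit2 (chr5:47982905-47983204, plus strand), Klk8 (chr7:43797327-43797626, plus strand) and 4933402E13Rik (chrX:62283249-62283548, plus strand) read as follows.
Lrrc15: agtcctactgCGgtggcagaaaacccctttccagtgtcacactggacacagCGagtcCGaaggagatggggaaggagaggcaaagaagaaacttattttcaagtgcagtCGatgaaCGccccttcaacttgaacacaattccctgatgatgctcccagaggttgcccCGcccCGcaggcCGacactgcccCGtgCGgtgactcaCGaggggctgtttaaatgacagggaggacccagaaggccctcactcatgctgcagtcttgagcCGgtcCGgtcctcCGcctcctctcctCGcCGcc
Slit2: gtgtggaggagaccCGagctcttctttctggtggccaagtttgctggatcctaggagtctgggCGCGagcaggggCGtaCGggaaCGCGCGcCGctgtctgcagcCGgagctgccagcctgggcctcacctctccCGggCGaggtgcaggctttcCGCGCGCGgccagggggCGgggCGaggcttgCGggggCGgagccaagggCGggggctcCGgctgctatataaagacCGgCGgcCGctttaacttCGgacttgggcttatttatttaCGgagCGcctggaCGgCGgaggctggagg
Klk8: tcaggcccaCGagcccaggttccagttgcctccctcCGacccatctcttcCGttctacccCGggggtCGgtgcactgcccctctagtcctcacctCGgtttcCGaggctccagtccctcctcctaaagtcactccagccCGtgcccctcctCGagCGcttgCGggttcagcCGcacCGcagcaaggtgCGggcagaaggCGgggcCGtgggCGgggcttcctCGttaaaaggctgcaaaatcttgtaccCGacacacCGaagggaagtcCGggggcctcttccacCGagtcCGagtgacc
4933402E13Rik: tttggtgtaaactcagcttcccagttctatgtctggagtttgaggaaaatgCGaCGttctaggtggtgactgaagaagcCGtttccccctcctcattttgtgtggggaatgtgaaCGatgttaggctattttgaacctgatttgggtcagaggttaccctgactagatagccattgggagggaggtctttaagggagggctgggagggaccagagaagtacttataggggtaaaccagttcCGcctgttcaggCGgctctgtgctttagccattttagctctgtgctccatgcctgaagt

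The members do not share a kind of promoter by CG content. The median over all 32851 promoters in the table was 7 CG pairs. Slit2 held 30, more than 88.3% of all promoters, Klk8 held 23 (more than 78.5%) and Lrrc15 held 16 (more than 67.0%). The Igfbp2 starts held 18 and 14. Both starts of 4933402E13Rik held 6, below the median. A search of both strands found the letters TATAAA at Slit2 and at the second start of 4933402E13Rik, against 13.6% of all promoters. The letters GGGCGG, which contain a CG pair, were found at Slit2, Klk8, Lrrc15 and the first Igfbp2 start, against 35.7% of all promoters.

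On the arrays, all 7 genes were detected on every ES array. Values are log2 intensities after background correction and quantile normalization, a scale on which the lowest detected signal of an array lay between 5.15 and 5.81. Every probe of the 7 genes, including the 2 that were not tested, was lower on each iPS array than on any ES array; groups failed to overlap, in either direction, at 44.3% of all tested probes for mNanog iPS and at 41.9% for hNanog iPS. The picking of the genes used these contrasts, so nothing is read from that count. Over all 18185 tested probes, 1598 passed the test as lower than ES in both iPS groups (8.79%), and 33 of them lay at least 2 log2 units lower in both (0.181%). In samples of many cells, fewer cells that express a gene and less RNA per cell cannot be told apart.

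**Figure D1:**
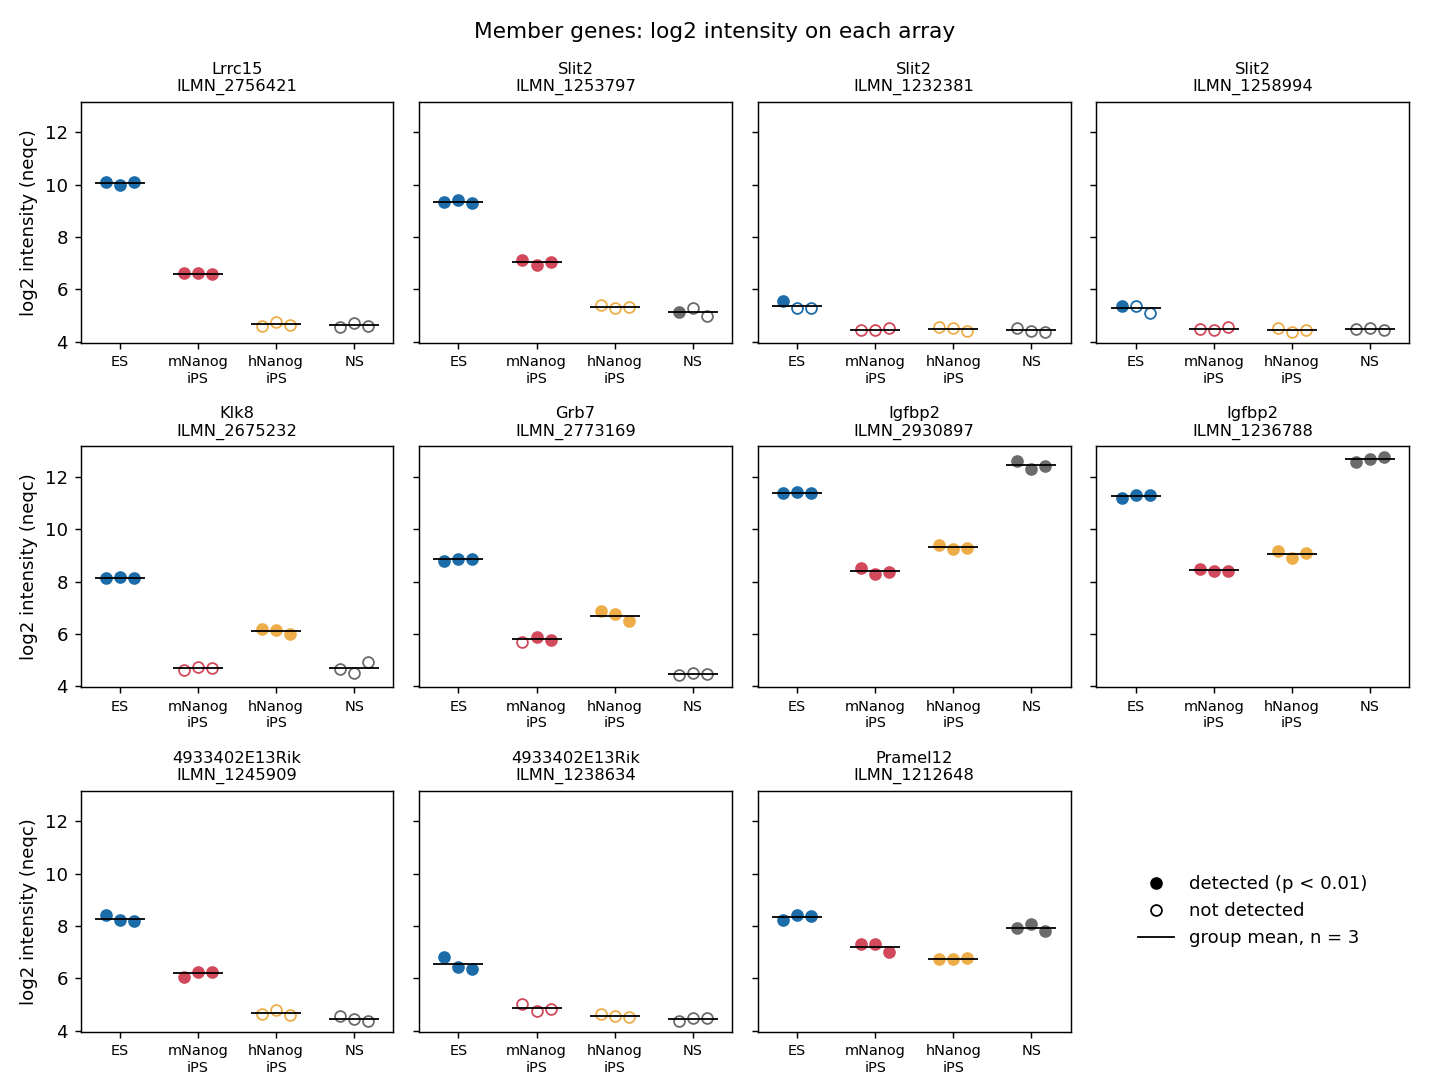
Log2 intensity of each probe of the 7 genes (vertical axis) on the 12 arrays by group (horizontal axis); filled points are arrays that detected the probe, open points are arrays that did not, and bars are group means (n = 3). ES points lie above all iPS points in each panel, and the NS points are highest for Igfbp2 alone.

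Lrrc15 fell from a high signal in ES to below the detection limit in hNanog iPS. On the 3 arrays of each group it read 10.11, 9.97 and 10.08 in ES, 6.63, 6.61 and 6.58 for mNanog iPS, 4.62, 4.77 and 4.65 for hNanog iPS, and 4.56, 4.73 and 4.62 in NS. All ES and mNanog iPS arrays detected it and no hNanog iPS or NS array did, and hNanog iPS overlapped NS. Its difference from ES was -3.45 log2 units in mNanog iPS (10.9-fold), and it lay at least 23.3-fold below ES in hNanog iPS, where the bound is set against the lowest detected signal. Among 18185 tested probes ranked by their distance below ES, it came 5 in mNanog iPS. Between the iPS groups, Lrrc15 was at least 2.13-fold lower in hNanog iPS (log2 difference -1.93, SE 0.083, adjusted p = 1.6e-08, limma). ES exceeded NS by at least 28.4-fold (adjusted p = 3.9e-14) and mNanog iPS exceeded NS by at least 2.61-fold (adjusted p = 3e-10). These tests share arrays with the contrasts that picked the genes, as do all tests of members that follow.

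Other membrane proteins with leucine-rich repeats showed no common direction. Of 23 listed genes 10 were tested, and 0 were higher and 2 lower in mNanog iPS than in ES, where 15.9% of all tested probes were higher and 16.9% lower. In hNanog iPS 4 were higher and 3 lower, against 13.7% and 12.4% of all tested probes. Here and in the lists below, a gene was counted only where at least 1 array of the 2 groups detected it. This held for 5 of the 10 in mNanog iPS against ES and for 7 in hNanog iPS against ES. The shares of all probes carry no such condition. The median difference of the 10 tested genes was 0.02 in both comparisons, against -0.03 and -0.00395 over all probes. Of the 4 that were higher in hNanog iPS, Lrrn1 read 4.53 in ES, where no array detected it, and 5.32 in hNanog iPS, where 1 array did. Lrig3, a membrane protein of the Lrig family, fell by 1.07 (SE 0.08) in mNanog iPS and by 0.63 (SE 0.08) in hNanog iPS. Flrt3, which binds FGF receptors and unc-5 proteins, fell by 0.42 and 0.64. With arrays scaled to a common median, both Flrt3 calls and the Lrig3 call in hNanog iPS missed the threshold.

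Slit2 was graded in the same order. Its main probe (ILMN_1253797) read 9.34, 9.41 and 9.30 in ES, 7.14, 6.95 and 7.04 for mNanog iPS, 5.40, 5.29 and 5.31 for hNanog iPS, and 5.15, 5.28 and 5.01 in NS. It was detected on all ES and mNanog iPS arrays, on no hNanog iPS array and on 1 NS array. The level in mNanog iPS lay 2.31 log2 units (4.96-fold) below ES, and that in hNanog iPS at least 14.3-fold below. Slit2 was at least 2.88-fold lower in hNanog iPS than in mNanog iPS (log2 difference -1.71, SE 0.091, adjusted p = 1e-07). hNanog iPS and NS, the lowest in the order, differed by 0.19 (adjusted p = 0.082); without NS replicate 2 the adjusted p was 0.028. The other Slit2 probes read only 5.29 to 5.56 (ILMN_1232381) and 5.10 to 5.38 (ILMN_1258994) in ES, where 1 array each detected them, and no other array did.

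Of the rest of the Slit and Robo pathway, 4 of 10 listed genes were tested. In mNanog iPS against ES 1 was higher and 2 were lower, and in hNanog iPS 0 were higher and 2 were lower; the median differences were -0.21 and -0.42. Over all tested probes 15.9% were higher and 16.9% lower in mNanog iPS (median -0.03); for hNanog iPS the shares were 13.7% and 12.4% (median -0.00395). Srgap3, which acts downstream of Robo, fell by 1.70 (SE 0.11, adjusted p = 2.9e-07) in mNanog iPS, where 1 array detected it. It fell by 1.63 (SE 0.11, adjusted p = 7.5e-07) in hNanog iPS, where 2 arrays did. Gpc1, a proteoglycan that binds Slit, rose by 0.47 in mNanog iPS and fell by 0.84 in hNanog iPS, and these calls missed the threshold with arrays scaled to a common median. Robo1, the receptor detected in all pluripotent groups, read 0.30 lower in mNanog iPS (adjusted p = 0.03), a call lost without mNanog iPS replicate 1 or 2 or without any single ES replicate.

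At 1 of its 2 probes, ILMN_1245909, 4933402E13Rik resembled Slit2 most closely of all members. Over the 12 arrays, after each probe was centred on its ES mean, ILMN_1245909 and the main Slit2 probe differed by a root mean square of 0.331 log2 units. By the same measure the second probe, ILMN_1238634, lay 1.51 from Slit2 and was nearer to Pramel12 (0.920). ILMN_1245909 read 8.41, 8.23 and 8.20 in ES, 6.07, 6.25 and 6.26 for mNanog iPS, 4.66, 4.79 and 4.59 for hNanog iPS, and 4.57, 4.45 and 4.39 in NS. It was detected on all ES and mNanog iPS arrays and on none of the others, so hNanog iPS and NS have no order. The mNanog iPS level lay 2.09 log2 units (4.25-fold) below ES, and the hNanog iPS level at least 6.80-fold below. It was at least 1.60-fold lower in hNanog iPS than in mNanog iPS (log2 difference -1.51, SE 0.097, adjusted p = 5.4e-07). The second probe, ILMN_1238634, was detected in ES alone, at 6.83, 6.45 and 6.38, and passed the filter through those arrays. It gave bounds of 1.91-fold and 2.05-fold below ES for mNanog iPS and hNanog iPS, and no order of the iPS groups, since neither was above background.

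Klk8 was graded the other way. It read 8.12, 8.16 and 8.15 in ES, 6.18, 6.17 and 5.99 in hNanog iPS, 4.62, 4.72 and 4.71 in mNanog iPS, and 4.65, 4.53 and 4.93 in NS. ES and hNanog iPS arrays all detected it, no mNanog iPS or NS array did, and the last 2 groups overlapped. The hNanog iPS level lay 2.03 log2 units (4.09-fold) below ES, and mNanog iPS at least 5.75-fold below. Klk8 in hNanog iPS exceeded mNanog iPS by at least 1.41-fold (log2 difference 1.43, SE 0.11, adjusted p = 1.8e-06). It was at least 7.56-fold higher in ES (adjusted p = 1.6e-11) and at least 1.85-fold higher in hNanog iPS (adjusted p = 8.8e-08) than in NS.

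Few other kallikreins could be read. Of 14 listed kallikrein-related genes and their partners, Klk1 alone was tested; its level lay at least 2.70-fold below ES in mNanog iPS and at least 2.90-fold below in hNanog iPS. A look at every gene named Klk, made after the values were seen, added Klk1b5, Klk1b26 and Klk1b27. These tissue kallikreins were detected in ES alone, at 6.88, 6.93 and 6.71, as was Klk1 at 7.05, and all passed the filter through the ES arrays, so their lower iPS levels are a description. They are near-identical copies of one another, so a probe may read more than 1 of them. Klk8 averaged 6.11 in hNanog iPS, where those 4 were not detected. Those 4 read lower in ES than Klk8 did (8.14) and so had less room above the detection limit. Nothing is therefore read from Klk8 alone being detected there.

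Grb7 followed the order of Klk8 with more signal left in mNanog iPS. It read 8.79, 8.87 and 8.86 in ES, 6.87, 6.75 and 6.50 in hNanog iPS, 5.71, 5.90 and 5.78 in mNanog iPS, and 4.45, 4.50 and 4.48 in NS. No groups overlapped, although only 2 of the 3 mNanog iPS arrays and no NS array detected it. The differences from ES were -2.14 in hNanog iPS (4.41-fold) and -3.05 in mNanog iPS (8.26-fold). hNanog iPS exceeded mNanog iPS by 0.91 (SE 0.10, adjusted p = 5.9e-05). NS was exceeded at least 12.3-fold by ES, at least 2.79-fold by hNanog iPS (adjusted p = 5.7e-10) and at least 1.49-fold by mNanog iPS (adjusted p = 9.1e-08).

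Among 11 listed relatives of Grb7 and the receptors they bind, 7 were tested. Against ES, 1 was higher and 3 were lower in mNanog iPS and 0 and 3 in hNanog iPS, with medians of -0.14 and -0.27. The shares of all tested probes were 15.9% and 16.9%, then 13.7% and 12.4%, with medians of -0.03 and -0.00395. Kit, the stem cell factor receptor, fell by 1.93 (SE 0.09, adjusted p = 1e-08) in mNanog iPS and by 0.84 (adjusted p = 1.9e-05) in hNanog iPS, and was 1.08 higher in hNanog iPS than in mNanog iPS (adjusted p = 3.4e-06). Kit thus shared the order of Grb7 and Klk8; its call in hNanog iPS against ES missed the threshold with arrays scaled to a common median. Tek, the angiopoietin receptor, fell by 1.19 (SE 0.17) in mNanog iPS, where 1 array detected it, and was at least 1.87-fold lower in hNanog iPS. Grb10, a relative of Grb7, fell by 0.70 in mNanog iPS and was 0.88 higher in hNanog iPS than there. The Grb10 calls and the Tek call in hNanog iPS also missed the threshold under that scaling.

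Igfbp2 was the only member whose NS level lay above its ES level. ILMN_2930897 read 11.38, 11.41 and 11.36 in ES, 9.39, 9.26 and 9.27 in hNanog iPS, 8.52, 8.29 and 8.38 in mNanog iPS, and 12.60, 12.31 and 12.39 in NS. ILMN_1236788 read 11.20, 11.30 and 11.30 in ES, 9.15, 8.91 and 9.07 in hNanog iPS, 8.49, 8.39 and 8.41 in mNanog iPS, and 12.57, 12.66 and 12.74 in NS. All arrays detected both probes and no groups overlapped at either, so the order was NS, ES, hNanog iPS, mNanog iPS. At the first and the second probe, mNanog iPS minus ES was -2.99 and -2.84 (7.93-fold and 7.14-fold), and hNanog iPS minus ES was -2.08 and -2.22 (4.22-fold and 4.67-fold). hNanog iPS exceeded mNanog iPS by 0.91 (SE 0.096, adjusted p = 4.1e-05) and 0.61 (SE 0.087, adjusted p = 5e-04). ES minus NS was -1.05 (adjusted p = 5.9e-07) and -1.39 (adjusted p = 1.5e-08), and mNanog iPS minus NS was -4.04 and -4.23.

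Igfbp2 was picked for its drop, and the other tested IGF-binding proteins had little or no room for one. In ES, Igfbp3 read 6.10 and Igfbp5 read 5.75, near the lowest detected signal. Igfbp4, Igfbp6 and Igfbp7 were detected on no ES array. Nothing is therefore read from Igfbp2 alone having fallen by over 2 log2 units. Of 19 other listed genes of the IGF system 13 were tested, and 7 were higher and 1 was lower in mNanog iPS than in ES; in hNanog iPS 5 were higher and 1 was lower. Their median differences were 0.54 and 0.21, against -0.03 and -0.00395 over all tested probes, of which 15.9% and 13.7% were higher and 16.9% and 12.4% lower. Igfbp4, a binding protein that limits IGF action, exceeded ES by at least 4.77-fold in mNanog iPS (adjusted p = 3.2e-10) and was at least 5.02-fold lower in hNanog iPS than in mNanog iPS (adjusted p = 5.6e-10). Igfbp6, which prefers Igf2, exceeded ES by at least 1.96-fold in mNanog iPS, and Igfbp7 was at least 2.46-fold higher there and at least 3.23-fold higher in hNanog iPS. Igf2 itself, the ligand, rose by 1.75 (SE 0.13, adjusted p = 6.1e-07) in mNanog iPS. Igfbp3, the main carrier of IGFs in serum, fell by 0.96 (SE 0.18, adjusted p = 0.0017) in hNanog iPS, where 1 array detected it, a call lost with arrays scaled to a common median and on the dimmer arrays alone.

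Pramel12 had the smallest differences of the set. It read 8.24, 8.42 and 8.37 in ES, 7.92, 8.09 and 7.80 in NS, 7.30, 7.32 and 7.03 for mNanog iPS, and 6.75, 6.75 and 6.79 for hNanog iPS. Each array detected it and no groups overlapped. It lay 1.13 (2.19-fold) below ES in mNanog iPS and 1.58 (3.00-fold) below in hNanog iPS, and ranked 150 of 18185 tested probes by the smaller of its drops, where Lrrc15 ranked 4 and Klk8 ranked 33. The iPS groups differed by 0.46 (SE 0.10, adjusted p = 0.012), hNanog iPS being lower. NS exceeded mNanog iPS by 0.72 (adjusted p = 4.2e-05) and hNanog iPS by 1.18 (adjusted p = 4.4e-07). ES exceeded NS by 0.41 (adjusted p = 0.0034), but with arrays scaled to a common median the sign turned (-0.06, adjusted p = 0.89).

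No other tested Prame-like gene passed the test as lower in hNanog iPS than in ES. Of 16 listed genes 4 were tested apart from Pramel12; against ES 1 was higher and 1 lower in mNanog iPS, and 2 were higher and 0 lower in hNanog iPS, with medians of -0.06 and 0.90. Of all tested probes, 15.9% were higher and 16.9% lower in mNanog iPS (median -0.03), and 13.7% and 12.4% in hNanog iPS (median -0.00395). Pramel14 rose by 3.06 (SE 0.08, adjusted p = 1.4e-10) in mNanog iPS and by 1.51 (adjusted p = 1.1e-07) in hNanog iPS, the reverse of Pramel12 in both. A look at every gene named Pramel, made after the values were seen, gave 8 tested genes beside Pramel12, of which 6 were higher and 0 lower in hNanog iPS than in ES, and 2 were higher and 1 lower in mNanog iPS. Pramel16, Pramel20, Pramel31 and Pramel37 were detected in hNanog iPS alone, at 6.33, 6.43, 6.55 and 6.21. These 4 of the 6 passed the filter through that group and could only be higher there, so nothing is read from the count. Genes of this family resemble one another, so a probe may read more than 1 of them. None of the family calls changed sign under the other processing settings.

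**Figure D2:**
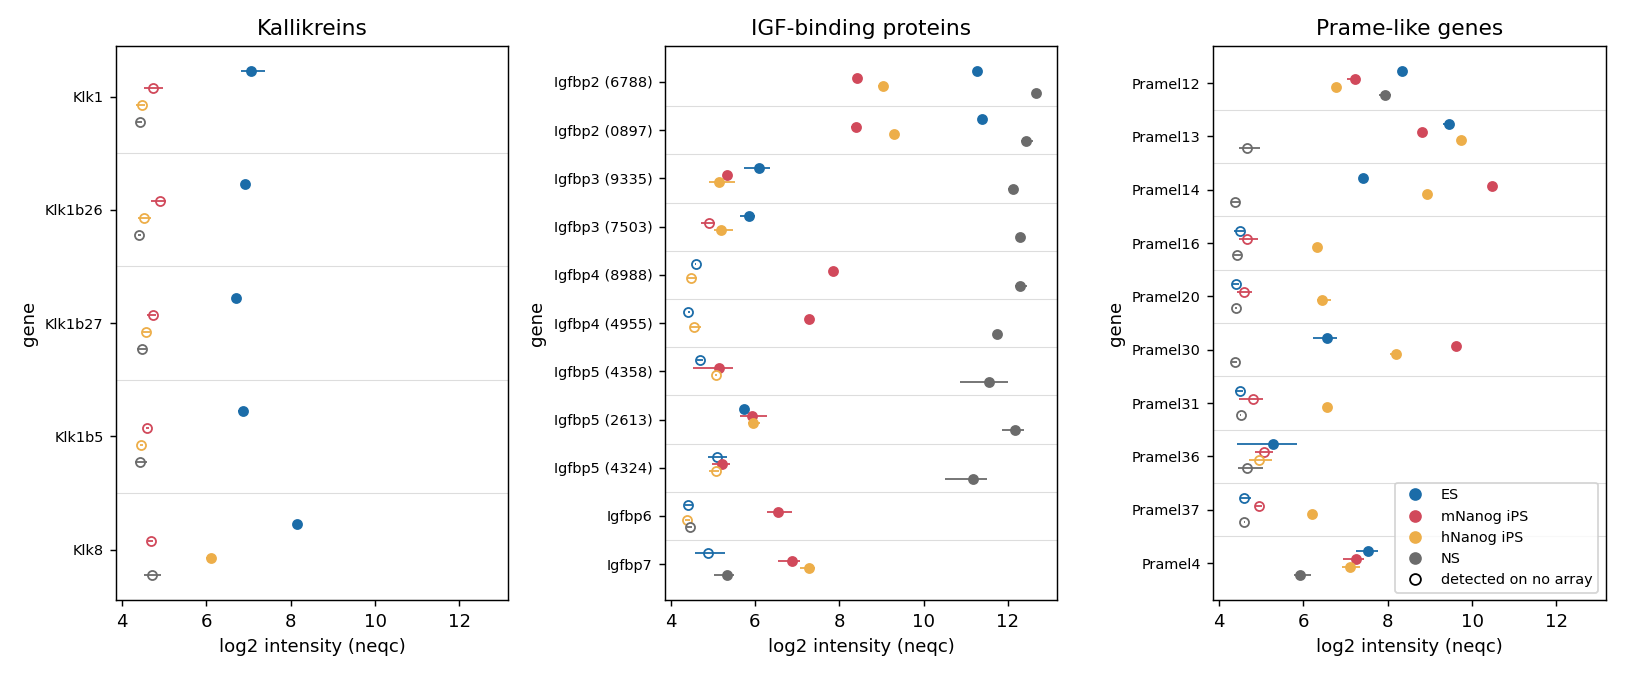
Mean log2 intensity (horizontal axis) of the probes of the kallikrein, IGF-binding and Prame-like genes (vertical axis), 1 point per group; bars run from the lowest to the highest of the 3 arrays and open points mark groups in which no array detected the probe. Of the kallikreins shown only Klk8, the highest of them in ES, has a detected level outside ES. Igfbp2 drops from ES to both iPS groups, and Pramel14 and Pramel30 rise where Pramel12 falls.

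The iPS groups differed from each other at most of these genes, and in opposite directions. Of the 9 tested probes, 8 passed the test between hNanog iPS and mNanog iPS, against 13.7% of all tested probes. Lrrc15, Slit2, 4933402E13Rik (ILMN_1245909) and Pramel12 were lower in hNanog iPS, a direction found at 7.3% of probes. Klk8, Grb7 and both Igfbp2 probes were higher, a direction found at 6.42%. The members were picked for low iPS levels on these same arrays, and a large drop in either iPS group can favour a difference between them. They also passed the filter in part through their high ES level. The count and these shares are therefore set side by side as a description, and nothing more is read from them.

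**Figure D3:**
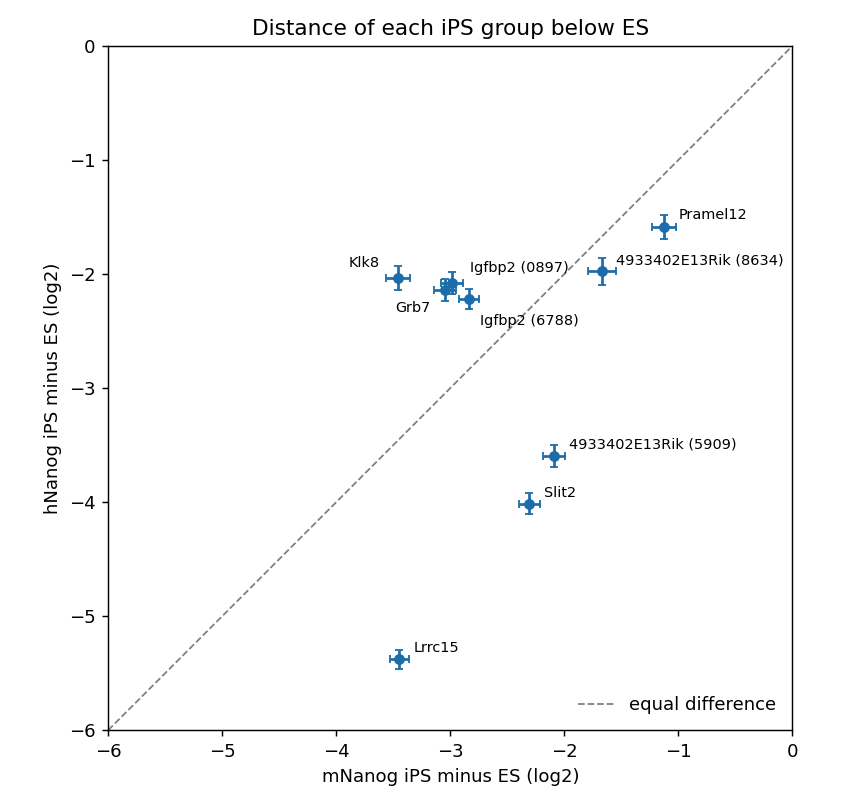
Difference of mNanog iPS from ES (horizontal axis, log2) against that of hNanog iPS from ES (vertical axis, log2) for the 9 tested probes, with bars of 1 SE; the last 4 digits of the probe name tell apart probes of a gene. Klk8, Grb7 and Igfbp2 lie above the dashed line of equal difference, and Lrrc15, Slit2, 4933402E13Rik and Pramel12 lie below it.

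By mean signal, 6 arrays were brighter (470 to 562) and 6 dimmer (317 to 332), with both kinds in each group, so the contrast of the iPS groups was repeated within each kind. In the brighter arrays mNanog iPS has 1 array, and in the dimmer ones hNanog iPS has 1. On the brighter and the dimmer arrays in turn, hNanog iPS minus mNanog iPS was -1.88 and -1.97 for Lrrc15, -1.69 and -1.73 for Slit2, and -1.53 and -1.57 for 4933402E13Rik. It was 1.46 and 1.32 for Klk8. Each of these is a fitted difference against a group below the detection limit, so it compares the kinds of array and is no size, for which the bounds above stand. Their adjusted p stayed below the threshold in each kind, with the lone array of a group assumed to vary like the groups that have 2. Grb7 differed by 1.03 and 0.69, and the latter missed the threshold (adjusted p = 0.089). Igfbp2 differed by 0.94 and 0.87 at ILMN_2930897 and by 0.62 and 0.63 at ILMN_1236788, with adjusted p-values of 0.06 and 0.085 on the dimmer arrays. Pramel12 differed by -0.28 (adjusted p = 0.22) and -0.52 (adjusted p = 0.12). Without mNanog iPS replicate 2 the adjusted p of Pramel12 was 0.054.

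Against NS cells the members split by gene. In ES, 7 tested probes of 6 genes were higher than in NS, where 40.6% of all tested probes were higher, and the 2 Igfbp2 probes were lower, where 34.6% were. Of the 7, ILMN_1238634 of 4933402E13Rik passed the filter through its ES arrays alone. All members were picked on these same arrays as expressed in ES and lower in iPS cells, so the counts against NS are a description. In mNanog iPS, Lrrc15, Slit2, Grb7 and ILMN_1245909 of 4933402E13Rik remained above NS, as 38.9% of all probes did. In hNanog iPS only Klk8 and Grb7 did, against 40.6% of all probes. Igfbp2 and Pramel12 lay below NS in both iPS groups, where 35.9% and 34.7% of all probes lay lower. Grb7 was thus the single member above NS in both iPS groups in these tests.

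The size of the differences depended on the processing, while the direction from ES was the same in all 24 alternatives. In the authors' processed values, mNanog iPS minus ES was -2.38 for Lrrc15, -1.56 for Slit2, -1.36 for Klk8, -1.61 for Grb7 and -0.69 for Pramel12. In the same values hNanog iPS minus ES was -2.91 for Lrrc15, -2.14 for Slit2, -1.005 for Klk8, -1.30 for Grb7 and -0.91 for Pramel12. Igfbp2 read -2.64 and -2.50 in mNanog iPS at its probes, and -1.93 and -2.03 in hNanog iPS. 4933402E13Rik read -1.08 and -1.45 in mNanog iPS and hNanog iPS at ILMN_1245909, and -0.46 and -0.54 at ILMN_1238634. Between the iPS groups, hNanog iPS minus mNanog iPS shrank to -0.53 for Lrrc15, -0.57 for Slit2, -0.38 for 4933402E13Rik at ILMN_1245909, 0.35 for Klk8 and 0.31 for Grb7, below the bounds that the background-corrected signals gave for the first 4. Those values were read as log2 from their range, as no source gives their base.

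Genes beside the members on the chromosome were read to see whether the low iPS level extended to them. On either side of each member the nearest annotated gene with a probe was taken, which gave 14 genes, and 13 were tested. Hes1 and Atp13a3 beside Lrrc15, Pacrgl beside Slit2, and Mien1 and Ormdl3 beside Grb7 passed the test in neither iPS group against ES. Nor did Smarcal1 and Igfbp5 beside Igfbp2, or Fmr1, 12 genes from 4933402E13Rik. The differences of all these genes ran from -0.26 for Smarcal1 to 0.21 for Igfbp5. Igfbp5 read 5.75 in ES, where 2 arrays detected it, so it had little room for a drop. Sox3, on the other side of 4933402E13Rik, was detected in none of the pluripotent groups and could show no drop. Klk1b26, 11 genes from Klk8, was detected in ES alone, as given above. Zfp819, 10 genes away on the other side, fell by 0.64 (adjusted p = 0.00016) in mNanog iPS and by 0.41 (adjusted p = 0.0048) in hNanog iPS, and neither call held with arrays scaled to a common median. Beside Pramel12, Pdpn, a mucin-like membrane glycoprotein, rose by 1.61 and 2.13. Pramel20 was detected in hNanog iPS alone.

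The genes with the most similar profiles were found by the root mean square difference over the 12 arrays after centring each probe on its ES mean, among tested probes of genes outside the set. Lrrc15 was nearest to Krt42, a type I keratin (0.55), and then to Dppa3 (0.95), a maternal-effect protein of oocytes and naive pluripotent cells. Krt42 read 9.42 and Dppa3 read 8.57 in ES, and neither was detected in any other group, while the mNanog iPS arrays did detect Lrrc15. Slit2 was nearest to Tdrd12 (0.666), a piRNA-pathway protein, and to Cdx2 (0.719), the homeobox factor of trophectoderm and hindgut. Cdx2 was also nearest to 4933402E13Rik at ILMN_1245909 (0.497), with 7.80 in ES and no detection elsewhere. The second probe of 4933402E13Rik, ILMN_1238634, was nearest to Rims1 (0.221).

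Otx2, a homeobox factor of anterior neural and primed pluripotent cells, came first for both Klk8 (0.385) and Grb7 (0.396). It read 8.31 in ES, 6.36 in hNanog iPS, 5.43 in mNanog iPS, where 1 array detected it, and 4.60 in NS, where none did. Klk8 and Grb7 differed from each other by 0.522. Pdlim4, a LIM-domain protein of the actin cytoskeleton, came first for both Igfbp2 probes (0.333 and 0.378), and it too was highest in NS, at 8.35 against 7.52 in ES. Pramel12 was nearest to Capn5, a calpain (0.217), and Kctd15 (0.228), which like it were detected in NS. With arrays normalized by cyclic loess all 3 nearest genes of each probe stayed among its nearest 10. Without background correction Slit2, both Igfbp2 probes and Pramel12 kept 2 of their 3. The profiles share arrays and normalization, so they are a description of likeness and carry no test.

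Markers of cell types were read on the same arrays. The 10 tested markers of pluripotent cells, Pou5f1 and Zfp42 among them, were detected on every ES and iPS array, with a mean log2 level of at least 11.9 per array, against 4.99 to 5.09 in NS, where 7 were not detected. The 8 tested NS markers averaged 12.2 to 12.4 in NS and at most 5.14 on any other array. No array detected 6 of them in mNanog iPS, 7 in hNanog iPS and 5 in ES. Sox9 was detected on all 3 mNanog iPS arrays, at a mean of 6.73, and on no hNanog iPS or ES array. Fibroblast and feeder markers as a list stood out in mNanog iPS, where 6 of 6 tested were detected on every array and averaged 7.52 to 7.71. These genes averaged 5.10 to 5.18 in hNanog iPS and 5.02 to 5.27 in ES, and Col1a1, Col6a1 and Dcn were detected in neither. In NS they averaged 6.41 to 6.45, and Fbln2 was highest there, at 13.44 against 7.94 in mNanog iPS. Twist1 differed little, at 6.74 in mNanog iPS, 6.26 in hNanog iPS and 6.36 in ES. Lrrc15, Slit2, 4933402E13Rik and Pramel12 were higher in mNanog iPS than in hNanog iPS along with this list. In ES these members were higher still, and 4 of the 6 markers were detected on no array. The part of the fibroblast and feeder markers in the result was not tested.

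The 3 tested markers of 2-cell-like cells, Zscan4c, Tcstv1 and Tcstv3, averaged 6.93 to 7.05 in hNanog iPS, where all were detected, and at most 5.18 on any other array. They moved with Klk8, Grb7 and Igfbp2 between the iPS groups, but not in ES, where none of the 3 was detected; their part in the result was not tested. Of 4 tested trophectoderm markers, 3 were detected on all ES arrays, where the list averaged at least 7.85, against 7.18 to 7.20 in mNanog iPS and 6.79 to 6.93 in hNanog iPS. The list went both ways, with 2 higher and 2 lower than ES in each iPS group. Of its members Cdx2 and Tfap2c were highest in ES, and Tead4 and Eomes were not; the part of these genes in the result was not tested. The 4 tested markers of primed epiblast, which include Otx2, averaged 7.23 to 7.28 in ES, 6.73 to 6.97 in hNanog iPS and 6.53 to 6.69 in mNanog iPS. Otx2 alone carried that order, since Dnmt3b ran the other way (11.45, 11.75 and 12.02) and Pou3f1 and Sox3 were detected in none of these groups; their part was not tested. The 5 tested markers of primitive endoderm averaged 6.77 to 6.92 in mNanog iPS, 6.49 to 6.57 in hNanog iPS, 5.98 to 6.22 in ES and 7.66 to 7.84 in NS. They went both ways, with 3 higher and 1 lower than ES in mNanog iPS, and 1 and 1 in hNanog iPS. Lama1 was the lower gene in both, at 10.58 in ES, 9.91 in mNanog iPS, 10.08 in hNanog iPS and 6.06 in NS. Dab2 and Col4a1 were detected on no ES array, and the part of this list was not tested. The 4 tested neuron markers averaged 6.74 to 7.05 across the pluripotent groups and 8.13 to 8.18 in NS. Stmn2 alone among them went the other way. It read 10.82 in mNanog iPS, 10.87 in hNanog iPS and 10.68 in ES, and no NS array detected it. No listed mesoderm marker passed the filter.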

How the data were processed

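For 45281 probes, the deposited table gives a linear intensity, not normalized, and a detection p-value on each array, per the file headers. They also deposited processed values for 20513 probes, taken here as log2, which served as an alternative. Scanner software was not stated. Signals were background-corrected from the detection p-values (offset 16) and quantile normalized with neqc in limma 3.58.1 (R 4.3.3). Probes with a detection p-value below 0.01 on at least 3 arrays were tested (18185 probes; 15676 have 1 symbol, for 10043 genes). Of 17492 annotated probes, 17484 carry 1 gene symbol and 8 carry several, and no gene was named from the latter. A linear model with 4 group means over 12 arrays was fitted with lmFit and eBayes; p-values were adjusted by Benjamini-Hochberg over all tested probes in each of 6 comparisons, with a threshold of 0.05. Where no array of a group detected a probe, a change is given as a bound against the lowest detected signal. The number of arrays limits the precision. The test was checked on simulated data. Members, lists, the rule for named genes and the alternatives were chosen with earlier results of these data known. Named are all member probes, at most 4 called genes per list and comparison, the 3 nearest profiles per probe and the nearest neighbours; the other Klk and Pramel genes were picked outside it, with their values in view. Nanog and the marker genes named are checks of the samples. Alternatives changed the background correction, the normalization, the filter, the values and the variance model, added replicate number or array brightness as a block, or left out arrays. No source states the slides, so slide was not used as a block.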

Additional observations from a re-analysis of the deposited data

Results flagged for a closer look

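At 8 member probes the distance of hNanog iPS from ES differed from that of mNanog iPS by the test of the difference itself, which equals hNanog iPS minus mNanog iPS. On the log2 scale the difference was -1.93 for Lrrc15, -1.71 for Slit2, -1.51 for 4933402E13Rik at ILMN_1245909 and -0.46 for Pramel12, all lower in hNanog iPS on 3 of 3 arrays. It was 1.43 for Klk8, 0.91 for Grb7, and 0.91 and 0.61 for the probes of Igfbp2 (ILMN_2930897 and ILMN_1236788), all higher in hNanog iPS on 3 of 3 arrays. For the probes that 1 of the groups did not detect, these fitted values are no sizes, and the bounds hold: at least 2.13-fold lower in hNanog iPS for Lrrc15, 2.88-fold for Slit2 and 1.60-fold for 4933402E13Rik, and at least 1.41-fold higher for Klk8. In the authors' processed values the differences of these 4 were smaller than those bounds. The call for Pramel12 was the least stable of these over the other settings, with 4 of 24 ending it. The members were picked for low iPS levels on the same arrays, so the number of probes that differed is a description.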

How the results depend on the processing

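Under 24 alternatives, 1069 of 1152 member values kept their direction and call, or moved by less than the replicate spread. A further 69 differences from ES moved without changing sign, 12 calls were lost, 1 was gained and 1 value reversed: Pramel12, ES minus NS (ILMN_1212648), was -0.0624 with median scaling. Median scaling also ended the calls between the iPS groups for Grb7 (adjusted p = 0.085), Igfbp2 (adjusted p = 0.07 and 0.27) and Pramel12 (adjusted p = 0.79), and cyclic loess ended that of Pramel12 between ES and NS (adjusted p = 0.072), as did the dimmer arrays alone (adjusted p = 0.079). The cause was not tested. No call for another list, neighbouring or family gene changed sign; 32 were lost with median scaling, 18 on the dimmer and 10 on the brighter arrays alone.

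Counts of probes changed moved most with median scaling. For mNanog iPS minus ES the count went from 5968 to 927 (605 higher, 322 lower, 65.3% higher against 48.6%), and for hNanog iPS minus ES from 4752 to 730 (555 higher, 175 lower, 76.0% against 52.6%). For hNanog iPS minus mNanog iPS it went from 2495 to 311 (125 higher, 186 lower), for ES minus NS from 13671 to 8788 (2856 higher, 5932 lower), for mNanog iPS minus NS from 13606 to 9128 (2769 higher, 6359 lower) and for hNanog iPS minus NS from 13695 to 8870 (3785 higher, 5085 lower). That scaling moved the median of all probes from -0.00395 to 0.17 for hNanog iPS minus ES, from 0.03 to 0.25 between the iPS groups, from 0.11 to -0.24 for ES minus NS, from 0.08 to -0.32 for mNanog iPS minus NS and from 0.12 to -0.04 for hNanog iPS minus NS. With fewer arrays, where a comparison can leave a group with 1 array whose spread is taken from the groups with 2, mNanog iPS minus ES gave 3849 on the brighter and 3800 on the dimmer ones; on the dimmer ones hNanog iPS minus ES gave 1402 and hNanog iPS minus mNanog iPS 533. Leaving out single arrays gave 4949 to 6333 for mNanog iPS minus ES, 3587 to 5014 for hNanog iPS minus ES, 1737 to 2732 between the iPS groups, 12970 to 13712 for ES minus NS, 12947 to 13651 for mNanog iPS minus NS and 13086 to 13759 for hNanog iPS minus NS.

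With replicate number as a block the counts were 5516, 4251, 2095, 13451, 13414 and 13506 in the order above. Same-numbered arrays of different groups correlated at -0.507 to 0.374 after group means were removed (median -0.166, 8 of 18 pairs over 0.1). Array brightness was not removed beforehand, so these values cannot decide whether the numbers pair the samples. The block ended no member call. Dim signals limit the lower levels: bounds replace folds wherever a group was not detected.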
